A study of Mus musculus with 6 samples.

Results

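The miR-297, miR-466, miR-467 and miR-669 miRNAs of the mouse come almost entirely from one tandem array of hairpins in an intron of Sfmbt2, and their levels are described here in pancreas from mice with experimental acute pancreatitis and from saline controls. Members were taken by name: every row of the deposited miRNA table whose identifier begins with mmu-miR-297, mmu-miR-466, mmu-miR-467 or mmu-miR-669. That took 57 rows. Rows with the same mature sequence carry the same counts, so 9 of them repeated another and 48 separate measurements remained, 3.43% of the 1400 in the table. The repeats were miR-297a-3p with miR-297b-3p and miR-297c-3p, miR-466a-3p with miR-466e-3p, miR-466b-3p with miR-466c-3p and miR-466p-3p, miR-466b-5p with miR-466o-5p, miR-466m-5p with miR-669m-5p, miR-669a-3p with miR-669o-3p, and miR-669a-5p with miR-669p-5p.

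All animals were wild-type C57BL/6 mice, and the tissue was whole pancreas taken 24 h after the first injection. The control group (libraries 43, 44 and 45) received saline only, labelled "saline, saline". The model group (libraries 56, 57 and 59) received caerulein, a peptide that acts on cholecystokinin receptors and overstimulates the acinar cells of the pancreas, with lipopolysaccharide (LPS), a component of the outer membrane of Gram-negative bacteria, added at the last injection, and is labelled "caerulein+LPS, saline". Both groups were injected intraperitoneally 7 times at intervals of 1 h, and the labels give the caerulein dose as 50 mg/kg, a unit that could not be checked here and may be a slip for a smaller one. No group received either agent alone, so the effects of caerulein and LPS cannot be told apart. Whether a library stands for 1 mouse is not said in the labels. The p-values therefore set the difference between groups only against the spread of libraries within groups, and some of that spread may be technical.

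Sfmbt2 encodes a Polycomb-related protein, and in the mouse the gene is imprinted and transcribed from the paternal allele in the early embryo and in extraembryonic tissue. The hairpin array in its intron is a feature of rodents, and its loss is known for defects of the placenta. A miRNA hairpin yields a 5p and a 3p arm, and the arm loaded into Argonaute finds target mRNAs by pairing through its seed, bases 2 to 8. Among the members, miR-669a is known to restrain MyoD in cardiac progenitors, and miR-466l has been linked to the Il10 mRNA in macrophages stimulated through Toll-like receptors.

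In GRCm38, with the GENCODE M21 annotation, Sfmbt2 lies on the plus strand at chr2:10370510-10595253. The annotation places 71 hairpins named Mir297, Mir466, Mir467 or Mir669 in intron 10 of the gene (chr2:10461473-10523944), all on the strand of the gene. They spread over 51617 of the 62472 bases of that intron, from 10466663 to 10518279. By name, 29 were Mir669, 23 Mir466, 14 Mir467 and 5 Mir297 hairpins. Another 10 hairpins with these names lay elsewhere in the genome. The array repeats itself: miR-467a-5p was found in 12 hairpins spaced 2413 to 2470 bases apart (median 2451), between which Mir466 and Mir669 hairpins alternate.

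**Figure D1:**
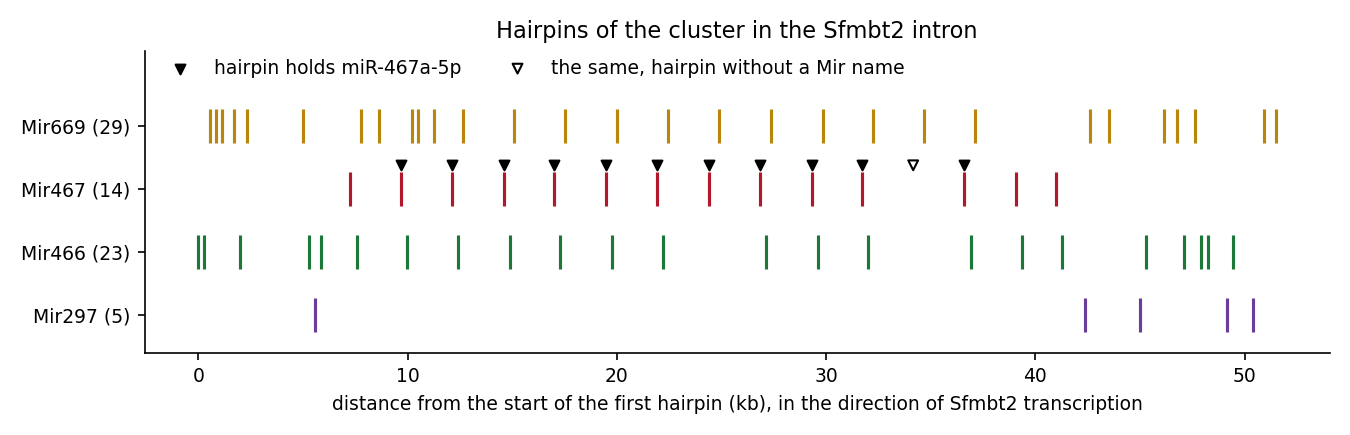
Positions of the 71 named hairpins in intron 10 of Sfmbt2, with the distance in kb from the start of the first hairpin on the x axis and 1 row per name group (number of hairpins in brackets). Triangles mark the 12 hairpins that hold the sequence of miR-467a-5p, 1 of which (open triangle) has no Mir name; they recur about every 2451 bases through the middle of the array.

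Of the 48 mature sequences, 44 lay in hairpins of the intron, 41 of them nowhere else among annotated hairpins, and these 44 held 98.9% of the cluster's counts. The 4 that lay only elsewhere were miR-466i-3p and miR-466i-5p (chromosome 13), miR-466j (chromosome 10) and miR-467h (chromosome 9). The sequence of miR-466i-5p is a run of UG repeats that occurred in 61 annotated hairpins across the genome, so its reads cannot be assigned to one of them. A single mature sequence often has many sources within the array as well: 23 members were found in several hairpins of the intron and 10 of them in at least 10. The number of intron hairpins holding a sequence and its mean level had a Spearman correlation of 0.21 over the 44 intron sequences, which share libraries and source hairpins.

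A miR-466 and a miR-669 hairpin of the array are printed below because their arms carry several of the most copied members. Capitals mark the mature arms. The sequences were read from the deposited table and the positions from GENCODE M21.
Mir466b-1 (chr2:10474219-10474300, plus strand): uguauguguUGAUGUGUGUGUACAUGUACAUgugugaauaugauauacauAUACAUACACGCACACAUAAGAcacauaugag
Mir669a-1 (chr2:10476853-10476949, plus strand): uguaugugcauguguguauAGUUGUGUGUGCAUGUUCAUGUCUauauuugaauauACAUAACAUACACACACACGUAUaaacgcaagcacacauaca

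These hairpins fold UG-rich 5p arms against CA-rich 3p arms. The members were 19 to 24 nt long, with 27 labelled 5p, 17 labelled 3p and 4 without an arm. The median 5p arm consisted of G and U to 70.8%, and the median 3p arm of A and C to 77.3%. The letters UGUGUG stood in 24 of 48 members (50.0%) and in 13 of the 1042 other known miRNA measurements (1.25%), and CACACA stood in 17 (35.4%) and 6 (0.576%), searched on the mature strand only. Either motif was present in 41 members (85.4%) and in 1.82% of the others.

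The 48 members had 30 different seeds, 12 of which were shared by several members, 30 members in all. The sequences below, from the deposited table, are those the results turn on. Capitals mark the seed. The miR-467 5p arms are shown first because they held most of the counts, followed by a pair of other miRNAs that share AAGUGC, bases 2 to 7 of miR-467a-5p, miR-467c-5p and miR-467d-5p. The miR-302 and miR-290 families, to which that pair belongs, are known from embryonic stem cells.
miR-467a-5p: uAAGUGCCugcauguauaugcg
miR-467b-5p: gUAAGUGCcugcauguauaug
miR-467c-5p: uAAGUGCGugcauguauaugug
miR-467d-5p: uAAGUGCGcgcauguauaugcg
miR-467e-5p: aUAAGUGUgagcauguauaugu
miR-292a-3p: aAAGUGCCgccagguuuugagugu
miR-302a-3p: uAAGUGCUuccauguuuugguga

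The UG-rich 5p arms of the other name groups are shown next, with the members that share a seed beside each other. The last of them, miR-466i-5p, is the pure repeat.
miR-297a-5p: aUGUAUGUgugcaugugcaugu
miR-297c-5p: aUGUAUGUgugcauguacaugu
miR-669a-5p: aGUUGUGUgugcauguucaugucu
miR-669f-5p: aGUUGUGUgugcaugugcaugugu
miR-669l-5p: aGUUGUGUgugcauguauaugu
miR-669b-5p: aGUUUUGUgugcaugugcaugu
miR-669c-5p: aUAGUUGUguguggaugugugu
miR-466b-5p: uGAUGUGUguguacauguacau
miR-466c-5p: uGAUGUGUgugugcauguacauau
miR-466i-5p: uGUGUGUGugugugugugug

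The CA-rich 3p arms are represented by a pair from the miR-467 hairpins, which differ in where they start, and by the 3p arms that miR-466 and miR-669 hairpins share most widely.
miR-467a-3p: cAUAUACAuacacacaccuaca
miR-467d-3p: aUAUACAUacacacaccuacac
miR-466b-3p: aUACAUACacgcacacauaaga
miR-669a-3p: aCAUAACAuacacacacacguau

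Near-identity of this kind limits how reads can be assigned. For 15 members another member lay within 1 edit (a base changed, added or lost), and for 33 within 2 edits. The 12 hairpins that hold miR-467a-5p also hold miR-467b-5p, and 12 hairpins each held miR-467a-3p and miR-467d-3p. The sources used here do not give how the authors' counting divided reads between such sequences, so the levels of close relatives are uncertain relative to each other.

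The libraries held 1942801 to 3004304 miRNA counts, each distinct sequence counted once. Levels are given below as TMM-scaled CPM, read counts scaled to a common library size by TMM factors, in which a count of 0 in a library allows 0.902 to 1.81 CPM (3 counts; counting error only). Chi-square per degree of freedom between libraries of a group ran from 99.9 to 268, so none was a copy of another. The miRNAs known from acinar cells summed to 48021 to 93172 CPM over the 6 libraries, with none at 0. Small RNA of whole pancreas cannot tell fewer cells of a type from less RNA per cell.

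The cluster was a minor part of the pancreatic miRNAs. It took 0.0416%, 0.0456% and 0.0358% of counts in control libraries 43, 44 and 45, and 0.0772%, 0.0753% and 0.0661% in model libraries 56, 57 and 59. All 3 model libraries lay above all 3 controls, with means of 0.0410% ± 0.00493 and 0.0729% ± 0.00594 (SD, n = 3 each), a ratio of 1.78. TMM scaling is meant to correct for the different makeup of the libraries. On that level the 48 members summed to 423, 517 and 420 CPM in the controls and 716, 697 and 573 CPM in the model libraries. The groups again did not overlap, and the ratio of the means was 1.46. Fold changes of single members depended on the scaling, as given below, and so may the separation of these sums. No p is given for such sums, since the members were chosen with earlier results of these data known. The 44 intron sequences alone summed to 443 ± 57.8 and 658 ± 76.3 CPM (SD, n = 3 each). The 4 sequences from elsewhere, nearly all of them miR-466i-5p, summed to 12.8, 7.14 and 10.3 CPM in the controls and 1.49, 8.32 and 1.80 CPM in the model libraries, where the groups overlapped.

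By name group, the libraries separated for miR-467 and miR-669. The miR-467 members summed to 268, 371 and 255 CPM in the controls and 487.2, 494.3 and 401 CPM in the model libraries. For the miR-669 members the sums were 76.2, 57.6 and 74.2 CPM against 98.0, 92.7 and 84.2 CPM. The sums of the miR-297 members overlapped (19.7, 46.7 and 36.2 CPM against 67.8, 53.9 and 30.4 CPM), as did those of the miR-466 members (59.2, 41.4 and 54.9 CPM against 62.6, 55.7 and 57.7 CPM). As shares of counts, however, the miR-466 members did not overlap, with 0.00582%, 0.00366% and 0.00468% in the controls and 0.00675%, 0.00602% and 0.00666% in the model libraries. The 5p arms held 90.4% ± 4.53 of the cluster's counts in the controls and 91.7% ± 1.76 in the model libraries (SD, n = 3 each), a difference smaller than the spread.

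**Figure D2:**
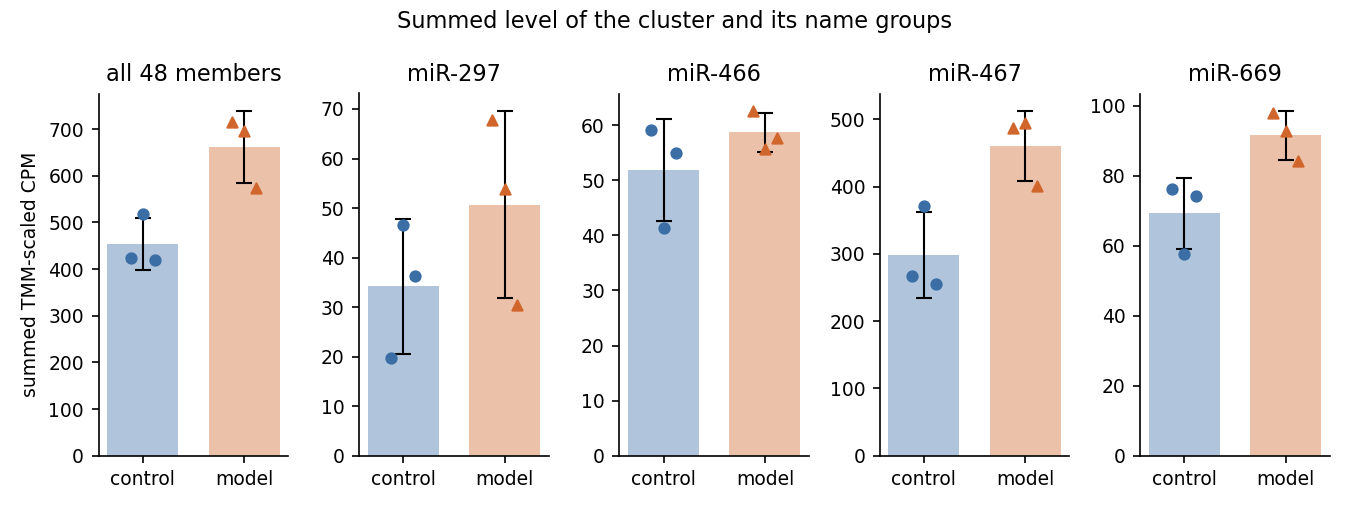
Summed TMM-scaled CPM of all 48 members and of each name group; bars give the mean, error bars the SD, and each symbol is 1 of 3 libraries per group, on a y axis that starts at 0 and differs between panels. The groups do not overlap for the whole cluster, miR-467 and miR-669, and overlap for miR-297 and miR-466.

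Tests per miRNA were run on all measurements together with edgeR's quasi-likelihood test. A filter on low counts left 492 of the 1400 measurements and 22 of the 48 members, 16 of them 5p arms, 5 of them 3p arms and miR-466g. The other 26 members had 1 to 59 counts over all libraries, 17 of them 10 or fewer, and none was at 0 in all 6. Just inside the filter was miR-466g with 51 counts in all, and just outside it was miR-669d-5p with 59. The filter asks for 3 libraries above 3.91 CPM, taken on CPM before TMM scaling. For miR-466c-5p, miR-467a-3p and miR-467b-5p only the model libraries reached that level, so these 3 could pass only through the group where they were higher. In miR-669a-5p, 1 control library and all 3 model libraries reached it, so its passing also rested on the model group. In contrast, 9 members were above it in all 6 libraries.

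Of the 22 tested members, 0 passed an adjusted p of 0.05 in either direction by edgeR. Over all 492 measurements, 1.22% passed with edgeR, 1.02% higher (5) and 0.203% lower (1) in the model group. DESeq2 gave an adjusted p for only 7 of the members, of which 0 passed, and for 375 measurements in all, of which 10.9% passed. At an unadjusted p under 0.05, 7 members were higher and 0 lower in the model group, where 11.4% of all measurements were higher and 12.2% lower. Of these 7, miR-466c-5p and miR-467a-3p passed the filter only through the model group. Another of them, miR-669a-5p, had only 1 control library at the filter level. In 7 of 22 members all 3 model libraries lay above all 3 controls, against 15.2% of all measurements, and in 0 of 22 all lay below, against 16.5%. These 7 were miR-297a-5p, miR-466c-5p, miR-467a-3p, miR-467a-5p, miR-467b-5p, miR-467c-5p and miR-669b-5p, and include the 3 that passed the filter only through the model group. For those 3 the filter by itself set all model libraries above all controls, on CPM before TMM scaling. The fitted log2 fold change, model over control, was above 0 in 20 of 22 members (90.9%) and in 50.4% of all measurements, with medians of 0.29 and 0.01.

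Members could be compared with other miRNAs of like abundance. Among the 310 tested measurements outside the cluster with a mean level within the members' range of 3.06 to 244 CPM, 49.7% had a log2 fold change above 0, with a median of -0.0026, and the groups did not overlap with the model higher in 13.9%. Between 10 and 30 CPM, 9 of 9 members and 50 of 99 others were above 0, with medians of 0.34 and 0.04. Under 10 CPM, 9 of 11 members and 37 of 73 others were above 0, with medians of 0.17 and 0.03. Leaving out of both sets the measurements that reached the filter level in 1 group only, among them the 3 members named above, 6 of 8 members and 32 of 66 others under 10 CPM were above 0, with medians of 0.11 and -0.0097. In these reduced sets all model libraries lay above all controls in 0 of 8 members and 5 of 66 others. The 8 still include miR-669a-5p, with 1 control library at the filter level. The Dlk1-Dio3 cluster, the other large imprinted miRNA cluster of the mouse, had 48 tested arms of 86 measured, of which 0 passed the test, 23 were above 0 and the median was -0.04. These counts describe the lists; members share hairpins and near-identical sequences and are not independent.

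**Figure D3:**
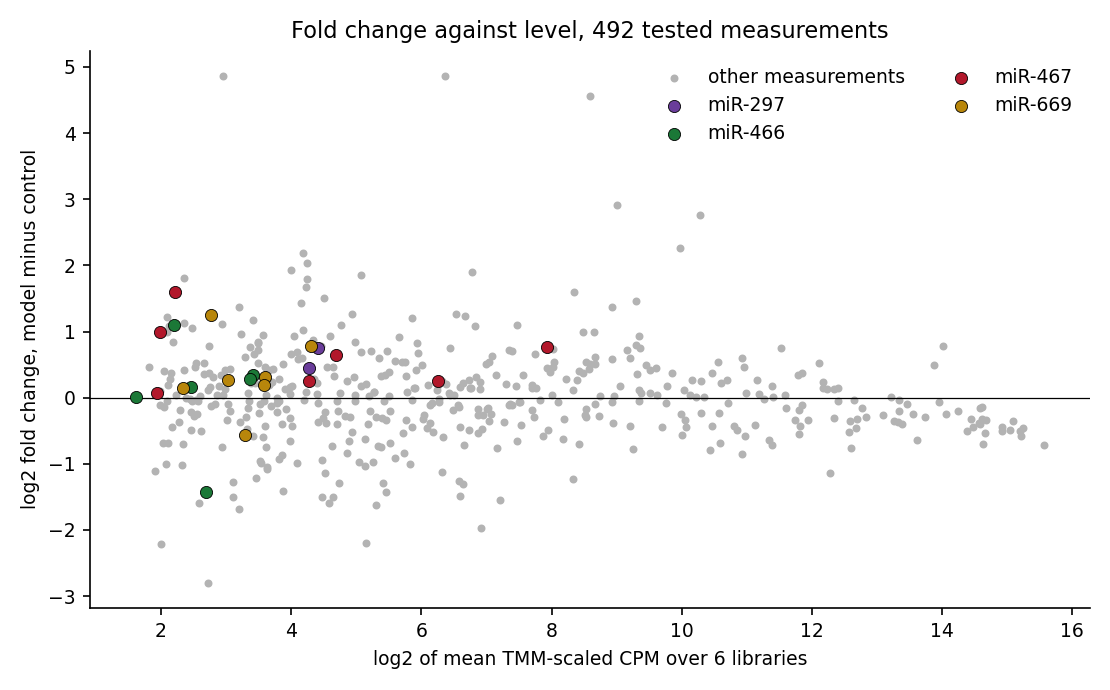
Log2 fold change (model over control, edgeR) against log2 of the mean TMM-scaled CPM for the 492 tested measurements; members are coloured by name group and all others are grey. Of the 22 members, 20 lie above the zero line, the exceptions being miR-669c-5p and miR-466i-5p, and most members sit at the low end of the abundance range.

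The scaling of the libraries sets where 0 lies. Against TMM, the median log2 fold change of all measurements moved by -0.0051 with RLE factors, -0.30 with upper quartile factors, 0.28 with total counts alone and 0.78 with the totals by which the authors' RPM values were divided. Relative to the median of all measurements, the members' median was higher by 0.28 with TMM, 0.28 with RLE, 0.29 with upper quartile factors, 0.29 with total counts and 0.34 with the authors' totals. In absolute terms upper quartile factors left 12 of 22 members above 0, with a median of 0.0074. With the authors' totals, 8 of 23 members passed the test as higher, as did 23.4% of all measurements. The counts of the table were 7.17% to 9.43% of those totals in control and 10.2% to 13.6% in model libraries.

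The most abundant member was miR-467a-5p, the 5p arm of the hairpin repeated 12 times. Its levels were 150, 240 and 151 CPM in control libraries 43, 44 and 45, and 336, 317 and 272 CPM in model libraries 56, 57 and 59. Every model library was above every control, and control library 44 stood between its group and the model libraries. The means were 180 ± 51.6 and 308 ± 32.5 CPM (SD, n = 3 each). The log2 fold change was 0.77 with SE 0.27 (by edgeR, adjusted p = 0.144), which does not pass over all measurements. It held 44.4% of all counts of the cluster and ranked 161 of 1400 by mean level, 3.19 times the level of miR-467e-5p, a miRNA of equal length. Its share of the cluster's counts was 39.3% ± 6.15 in the controls and 46.6% ± 1.08 in the model libraries (SD, n = 3 each), with control library 44 at 46.4%, inside the range of the model libraries. Without it, the cluster summed to 272, 277 and 269 CPM in the controls and 380, 380 and 300 CPM in the model libraries, which did not overlap either.

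The other miR-467 5p arms did not follow it evenly. Both miR-467c-5p and miR-467d-5p differ from miR-467a-5p by 2 edits. Levels of miR-467c-5p were 17.4, 20.9 and 22.3 CPM in the controls and 35.04, 33.6 and 25.9 CPM in the model libraries. For miR-467c-5p the groups again did not overlap (log2 fold change 0.64 with SE 0.26, adjusted p = 0.193 by edgeR). Its seed partner miR-467d-5p was at 14.7, 23.8 and 14.5 CPM against 14.2, 32.3 and 16.8 CPM. Those groups overlapped throughout, with only model library 57 standing high (log2 fold change 0.26 with SE 0.41, adjusted p = 0.769 by edgeR). Without model library 57 its log2 fold change was -0.16, and with upper quartile factors -0.045. The second most abundant member, miR-467e-5p, was at 74.2, 80.9 and 54.3 CPM against 88.3, 92.1 and 69.5 CPM, where model library 59 lay below 2 of the controls (log2 fold change 0.25 with SE 0.25, adjusted p = 0.625 by edgeR; -0.030 with upper quartile factors). Together, miR-467c-5p and miR-467d-5p, which share the seed AAGUGCG, summed to 32.1, 44.8 and 36.8 CPM against 49.2, 65.9 and 42.7 CPM, and these sums overlapped. The low miR-467b-5p, whose sequence lies in the same hairpins as miR-467a-5p, had 3.09, 2.38 and 2.41 CPM in the controls and 5.22, 7.08 and 3.61 CPM in the model libraries (log2 fold change 0.99 with SE 0.44, adjusted p = 0.221 by edgeR). It passed the filter only through the model group, which by itself set the groups apart on CPM before TMM scaling.

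The seed of miR-467a-5p, AAGUGCC, occurred in 1 other known miRNA of the table, miR-292a-3p, with 0, 0 and 3 counts in the controls and 2, 0 and 1 in the model libraries. Over bases 2 to 7, AAGUGC was shared by 7 other measurements, with at most 21 counts in any library. For example, miR-302a-3p had 3, 3 and 1 counts in the controls and 3, 9 and 3 in the model libraries, against 250 to 504 and 901 to 1028 counts of miR-467a-5p. Among known miRNAs, most reads with AAGUGC at bases 2 to 7 thus carried a miR-467 sequence. Sequences that hold these letters at another position, as miR-467b-5p does, were not counted.

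The miR-297 group has a pair of tested 5p arms that share the seed UGUAUGU and lie 1 edit apart. Levels of miR-297a-5p were 17.8, 13.3 and 16.3 CPM in the controls and 28.3, 23.1 and 28.6 CPM in the model libraries. The groups did not overlap (log2 fold change 0.75 with SE 0.27, adjusted p = 0.150 by edgeR). Its close relative miR-297c-5p, in contrast, was present or absent by library: it had 0, 64 and 31 counts in control libraries 43, 44 and 45, and 98, 97 and 0 in model libraries 56, 57 and 59. Its log2 fold change was 0.44 with an SE of 1.54 (by edgeR, adjusted p = 0.911), and became -0.20 without control library 43 and -0.071 without model library 56.

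The same kind of pattern was found in miR-669c-5p, with 43, 1 and 29 counts in the controls and 63, 1 and 0 in the model libraries. Here control library 44 and model libraries 57 and 59 were the low ones, so only model library 59 was low for both miRNAs. Its log2 fold change was -0.57 with an SE of 1.61 (by edgeR, adjusted p = 0.882), and moved to 0.0024 without model library 57 and to 0.024 without model library 59; without model library 56 it was -5.84. Of all 1400 measurements, these 2 were the only ones with a library at 1 count or fewer and another at 25 or more in both groups. Without the pair, the cluster summed to 425 ± 53.9 CPM in control and 632 ± 51.2 CPM in model tissue (SD, n = 3 each), a ratio of 1.49. The cause of the pattern was not tested.

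Among the other miR-669 5p arms, miR-669b-5p had the lowest adjusted p of all members. It was at 13.5, 16.7 and 13.3 CPM in the controls and 27.2, 23.7 and 24.1 CPM in the model libraries, with a clear gap between the groups (log2 fold change 0.78 with SE 0.26, adjusted p = 0.139 by edgeR). The arm named miR-669a-5p or miR-669p-5p, found in 15 hairpins of the intron, was at 3.87, 2.38 and 6.03 CPM against 5.96, 11.4 and 11.4 CPM. Control library 45 and model library 56 were at about the same level (log2 fold change 1.25 with SE 0.47, adjusted p = 0.159 by edgeR). Its seed is shared with miR-669l-5p, at 10.1, 12.9 and 9.65 CPM against 11.2, 15.7 and 13.5 CPM, and with miR-669f-5p, at 6.19, 6.19 and 1.81 CPM against 4.47, 6.78 and 4.81 CPM, which overlapped in both cases. The log2 fold change of miR-669l-5p was 0.31 (SE 0.31; by edgeR, adjusted p = 0.625). That of miR-669f-5p was 0.15 (SE 0.50; by edgeR, adjusted p = 0.909), and it turned to -0.24 without control library 45, -0.029 without model library 57 and -0.15 with upper quartile factors. As a seed group, GUUGUGU, the 3 summed to 20.1, 21.4 and 17.5 CPM against 21.6, 33.9 and 29.8 CPM, with model library 56 just above the highest control. The last of this group, miR-669o-5p, was at 13.9, 10.0 and 9.65 CPM against 8.20, 13.6 and 16.8 CPM and overlapped fully (log2 fold change 0.20 with SE 0.37, adjusted p = 0.805 by edgeR; -0.12 with upper quartile factors and -0.018 without model library 59).

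**Figure D4:**
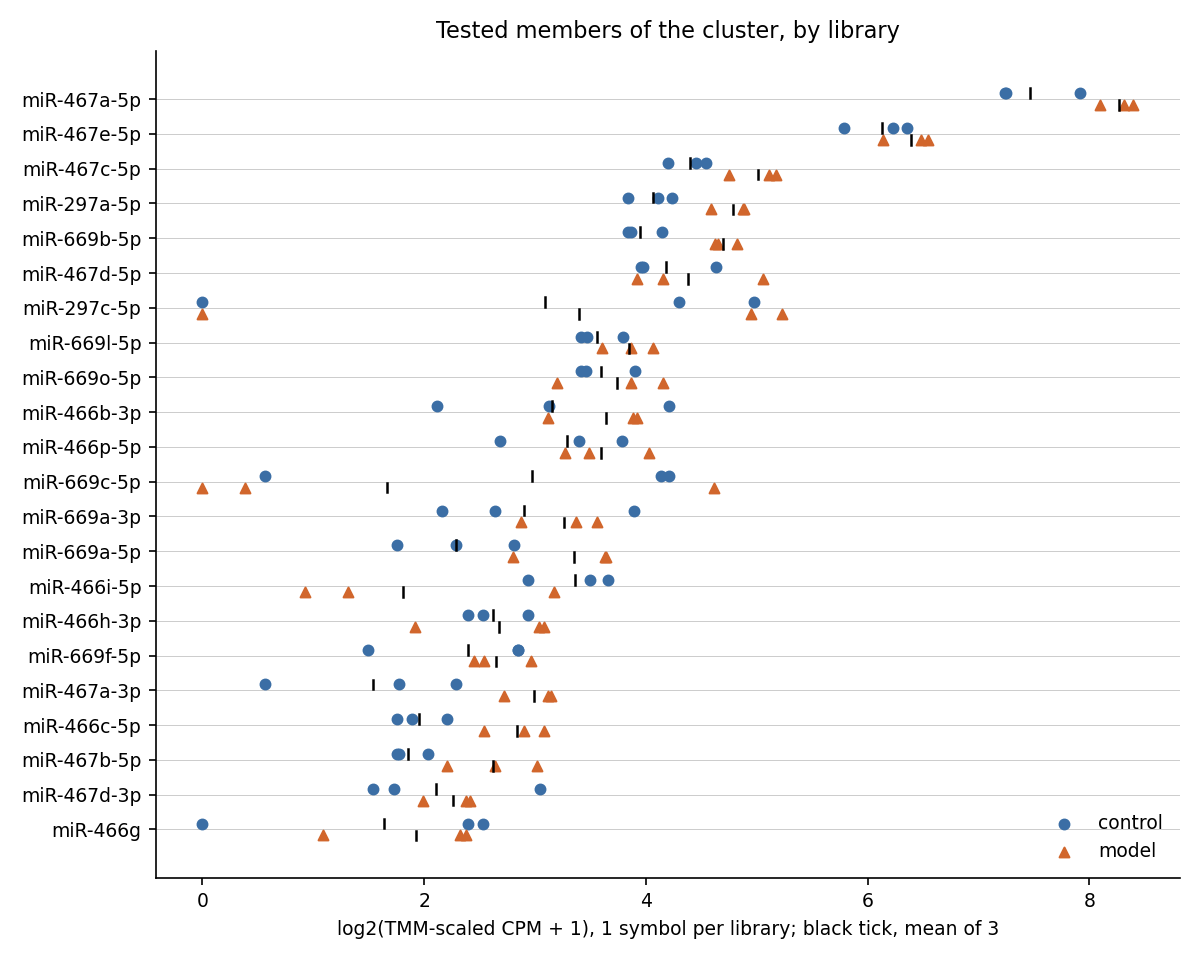
Levels of the 22 tested members as log2(TMM-scaled CPM + 1), 1 symbol per library (circles control, triangles model) with a black tick at the mean of 3, ordered by mean level. Model libraries lie above all controls for miR-467a-5p, miR-467c-5p, miR-297a-5p, miR-669b-5p, miR-467a-3p, miR-466c-5p and miR-467b-5p. Of these, miR-467a-3p, miR-466c-5p and miR-467b-5p passed the filter only through the model group, which by itself set this order on CPM before TMM scaling. By contrast, miR-297c-5p and miR-669c-5p have libraries at or near 0 in both groups.

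The miR-466 members were low and mixed. The 5p arm miR-466c-5p had 2.71, 2.38 and 3.62 CPM in the controls and 7.46, 6.47 and 4.81 CPM in the model libraries, without overlap (log2 fold change 1.10 with SE 0.41, adjusted p = 0.157 by edgeR). But miR-466c-5p passed the filter only through the model group, so the filter by itself set this separation, on CPM before TMM scaling. Its seed partner miR-466b-5p, which the filter removed, had 6, 3 and 1 counts against 8, 16 and 13. As the seed group GAUGUGU they summed to 5.03, 3.81 and 4.22 CPM against 10.4, 11.4 and 8.72 CPM. The widely shared 3p sequence, miR-466b-3p, was at 7.73, 3.33 and 17.5 CPM against 13.8, 7.70 and 14.1 CPM, with a control library as the highest (log2 fold change 0.34 with SE 0.58, adjusted p = 0.786 by edgeR; -0.069 without control library 44). Named without an arm, miR-466g had 4.25, 4.76 and 0 CPM against 1.12, 4.00 and 4.21 CPM, with a log2 fold change of 0.01 (SE 0.93; by edgeR, adjusted p = 0.998) whose sign changed in 9 of its alternatives. The tested members not yet described, miR-466p-5p, miR-466h-3p and miR-669a-3p, overlapped between groups, with log2 fold changes of 0.28, 0.17 and 0.26.

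The pure UG repeat miR-466i-5p had the most negative log2 fold change of the members. It was at 11.6, 6.67 and 10.3 CPM in the controls and 1.49, 8.01 and 0.902 CPM in the model libraries. Model libraries 56 and 59 were low and model library 57 lay within the controls (log2 fold change -1.43 with SE 0.76, adjusted p = 0.297 by edgeR). It is the one tested member without a hairpin in the intron. Of the 21 tested members that have one, 20 were above 0, with a median of 0.31.

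The 3p arms of the miR-467 hairpins were far lower than miR-467a-5p. For miR-467a-3p the levels were 3.87, 0.476 and 2.41 CPM in the controls and 5.59, 7.70 and 7.82 CPM in the model libraries. The groups did not overlap, and the log2 fold change was the largest of the members (1.60 with SE 0.60, adjusted p = 0.159 by edgeR). However, miR-467a-3p passed the filter only through the model group, so the filter by itself set this separation, on CPM before TMM scaling. Its neighbour miR-467d-3p, in 12 hairpins as well, was at 2.32, 1.904 and 7.24 CPM against 2.98, 4.31 and 4.21 CPM, with control library 45 the highest of all (log2 fold change 0.07 with SE 0.58, adjusted p = 0.969 by edgeR). The sign of that value turned with upper quartile factors (-0.24) and without control library 43 (-0.23), control library 44 (-0.25) or model library 57 (-0.013). With miR-669b-3p and miR-669f-3p, miR-467a-3p shares the seed AUAUACA, and these 3 summed to 7.73, 1.43 and 4.22 CPM against 8.20, 11.1 and 11.1 CPM, where model library 56 was close above control library 43.

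The ratio of 5p to 3p arm, which does not depend on scaling between libraries, could be tested for 125 hairpins with limma, of which 0.8% (1 hairpin) passed an adjusted p of 0.05. Among them were 5 members, miR-466c, miR-466p, miR-467a, miR-669a and miR-669o, and 0 passed. The pair miR-466c and miR-466p share a 3p sequence found in 15 intron hairpins, while their 5p sequences lay in 3 and 2. Likewise miR-669a and miR-669o share a 3p sequence found in 13, while the 5p sequence of miR-669o lay in 1. For miR-466c, miR-466p and miR-669o the 3p reads may thus come from other hairpins too. The arms of miR-467a and of miR-669a did not lie in wholly the same hairpins either. Mir467b held miR-467a-5p without miR-467a-3p, and Mir467d held miR-467a-3p without miR-467a-5p. Mir669a-3, Mir669p-1 and Mir669p-2 held miR-669a-5p without miR-669a-3p, and Mir669o held miR-669a-3p without miR-669a-5p. These ratios may thus also mix reads of different hairpins. At an unadjusted p under 0.05, 0 of the 5 passed, against 14.4% of all hairpins. The log2 ratio of miR-467a was 5.15, 7.98 and 5.65 in the controls and 5.82, 5.31 and 5.07 in the model libraries, so the 5p arm dominated in all 6 (difference -0.86, SE 0.72, limma adjusted p = 0.621). That of miR-669a was 0.14, -1.0 and -1.13 against -0.61, 0.08 and 0.83, with values on both sides of 0 (difference 0.76, SE 0.51, limma adjusted p = 0.563).

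Below the filter, the most abundant member was miR-669d-5p, with 10, 4 and 0 counts in the controls and 14, 20 and 11 in the model libraries. The 3p arms miR-669f-3p (9, 2 and 3 counts against 7, 11 and 11) and miR-466f-3p (6, 2 and 4 against 3, 13 and 11) overlapped between groups. So did miR-466a-3p, with 4, 2 and 5 counts against 10, 5 and 12, and its seed partner miR-466d-3p, with 9, 1 and 5 against 7, 7 and 9. The seed GUGUGCA was represented by miR-466m-5p (4, 2 and 0 counts against 4, 3 and 1) and miR-466h-5p (1, 2 and 0 against 5, 0 and 2), and miR-467e-3p had at most 2 counts in any library. Fitted without the filter, all 48 members could be tested with edgeR: 0 passed an adjusted p of 0.05, against 3.93% of all measurements, and 32 had a log2 fold change above 0, against 51.9% of all measurements. Together the 26 members below the filter summed to 27.8, 17.6 and 15.7 CPM against 27.2, 30.2 and 25.6 CPM, and the groups overlapped.

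Markers of the cell types of the pancreas and of blood were read in the same libraries. The 6 leukocyte miRNAs summed to 4884 to 7245 CPM in control and 5535 to 12287 CPM in model libraries; 5 of 6 were above 0, 1 passed the edgeR test and the median log2 fold change was 1.23. That 1 was the myeloid miR-223-3p, at 473, 241 and 248 CPM against 2245, 2141 and 2134 CPM. The 4 acinar miRNAs summed to 54550 to 93172 CPM against 48021 to 51294 CPM, with 0 above 0 and a median of -0.48. The 3 islet miRNAs summed to 59500 to 81690 CPM against 39310 to 52578 CPM, and the 2 endothelial ones to 40729 to 46640 CPM against 32410 to 38026 CPM. The sums of the 3 erythroid miRNAs (10700 to 13679 against 7129 to 12154 CPM) and of the 4 smooth muscle and mesenchymal ones (17091 to 25978 against 16678 to 20056 CPM) overlapped. Taken singly, 1 of 3 islet, 1 of 2 endothelial and 1 of 3 erythroid miRNAs were above 0, with medians of -0.70, -0.11 and -0.32. Of the smooth muscle and mesenchymal miRNAs, 3 of 4 were above 0, with a median of 0.36. No marker was at 0 over all libraries. The part of these cell types in the levels of the Sfmbt2 intron miRNAs was not tested.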

How the data were processed

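Small RNA was sequenced from 6 pancreas libraries, 3 per group, grouped by the sample titles. Gel-selected RNA of 18 to 30 nt was ligated to adapters with unique molecular identifiers, per the labels' protocols. The sources used here do not say whether counts were collapsed on these, so the floors cover counting error only. Ligation favours some sequences, which distorts levels between miRNAs. The submitters' processing notes name Bowtie2 and GRCm38.p6 without a role. The authors deposited 1 table of 1414 rows (1104 known, 310 predicted) with raw read counts, per the file headers, and the authors' RPM values, counts divided by library totals of 22055639 to 27876715 that were recovered from the ratio of the deposited columns. The sources used here do not say what these totals count. No column lacked a library.

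Rows with the same mature sequence (14 repeats, with equal counts) were joined to 1 measurement before the fit. The test was that of edgeR 4.0.16 (R 4.3.3): filterByExpr (minimum count 10, minimum total 15), TMM factors, robust glmQLFit and two-sided glmQLFTest, model against control, with Benjamini-Hochberg adjustment over 492 measurements and a threshold of 0.05. Tested measurements held at least 99.9% of counts in each library. The SE of a log2 fold change is its size divided by the root of F. The script was tested on simulated data. Log2 ratios of 5p to 3p counts, with 1 count added to each, were tested with limma 3.58.1 for hairpins whose arms both averaged 10 counts or more. Hairpins were placed by exact sequence on GENCODE M21 (GRCm38). The sequence of 1 hairpin is not reported here. Only 3 of the 57 rows matched the RefSeq miRNA table, so mature sequences are those of the deposited table.

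Members named are the 10 most abundant and those with the 5 largest and 5 smallest log2 fold changes among the tested, the 5 most abundant that were not tested, and the 2 most abundant of each seed group of at least 3. Named in addition, after their values were seen, were the single cases and arm pairs given by name in the text, miR-292a-3p, miR-302a-3p and miR-669a-3p. The members, the Dlk1-Dio3 list and the marker lists (acinar, islet, leukocyte, erythroid, smooth muscle and mesenchymal, endothelial) were chosen with earlier results of these data known. Alternatives were other scalings, other filters, DESeq2 1.42.0, another dispersion estimate, all rows kept, known rows only and leaving out each library.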

Additional observations from a re-analysis of the deposited data

How the results depend on the processing

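Over all measurements, where TMM gave 5 higher and 1 lower, RLE factors gave 8 and 8, known rows only 8 and 7, no filter on low counts 23 and 32, and DESeq2 22 and 19. Total counts alone gave 17 higher, the authors' totals 116 higher and 2 lower, upper quartile factors 33 lower, at least 50 counts in 3 libraries 7 lower and the newer dispersion estimate 2 lower. Leaving out 1 library gave 3 to 5 higher and 0 to 5 lower. The number of members that passed was 0 in every alternative except the authors' totals, with 8; DESeq2 gave an adjusted p for 7 members only. The share of tested members above 0 moved to 54.5% with upper quartile factors. Their median log2 fold change was 0.0074 with upper quartile factors, 0.58 with total counts, 1.13 with the authors' totals and 0.69 with at least 50 counts in 3 libraries, where 7 members were left, and 0.36 to 0.69 without 1 library each, highest without control library 45. Relative to all measurements it stayed between 0.20 and 0.68 over these alternatives. The mean share of the cluster was 0.00349% in control and 0.00866% in model libraries of the authors' totals, a larger denominator, and 0.0247% and 0.0389% without miR-467a-5p, an alternative chosen after seeing the data, as were those without miR-297c-5p and miR-669c-5p and with intron members only.

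For 19 named members, 292 values under alternatives included 26 changes of sign, 10 members having none. With upper quartile factors these were miR-466g (-0.32), miR-467d-3p (-0.24), miR-467d-5p (-0.045), miR-467e-5p (-0.030), miR-669f-5p (-0.15) and miR-669o-5p (-0.12). For miR-466g the others were RLE factors (-0.0035), no filter (-0.0062), newer dispersion (-0.029), all rows kept (-0.012), known rows only (-0.030), and leaving out control library 45 (-0.54) or model library 57 (-0.17) or 59 (-0.22), and the highest value was 0.42. Leaving out 1 library also turned miR-297c-5p (-0.20 without control library 43, -0.071 without model library 56), miR-466b-3p (-0.069, control 44), miR-467d-3p (-0.23, -0.25 and -0.013 without control 43, control 44 and model 57), miR-467d-5p (-0.16, model 57), miR-669c-5p (0.0024 and 0.024 without model 57 and 59), miR-669f-5p (-0.24 and -0.029 without control 45 and model 57) and miR-669o-5p (-0.018, model 59). At the other end of these ranges were 1.31 for miR-297c-5p, 1.05 for miR-466b-3p, 0.82 for miR-467d-3p, 0.53 for miR-467d-5p, -5.84 for miR-669c-5p (without model 56), 0.35 for miR-669f-5p and 0.46 for miR-669o-5p. The arm ratio difference became 0.045 and 0.39 for miR-466p without control 43 and 44, and 0.32 and 0.093 for miR-669o without control 43 and model 56, against -1.09 and -0.87 without control 45. The cause of these changes was not tested. With the authors' totals, miR-297a-5p, miR-466c-5p, miR-467a-3p, miR-467a-5p, miR-467b-5p, miR-467c-5p, miR-669a-5p and miR-669b-5p passed the test. No paired analysis was possible because the groups share no replicate number. At these depths a member with few counts limits what can be detected, as the floor of 0.902 to 1.81 CPM shows.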
